A study of Mus musculus with 10 samples.

Results

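The genes described here are 9 members of the LY6 and uPAR domain family, SLURP1, LY6G6C, LY6D, LYPD3, PSCA, LY6A, LY6E, PLAUR and LY6K, out of 24043 gene rows in each of 2 deposited expression tables. They were picked by symbol, with measured values of these samples in view, and which of those values led to the choice is not recorded. Their levels and changes are therefore given as a description, with no p-value.

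The samples were mouse prostate cancer organoids, cultures of epithelium that organise in 3 dimensions. They came from the dorsal-lateral prostate of C57BL/6 mice aged 8 weeks. All organoids carried cMYC overexpression, floxed EZH2 alleles and an inducible PSA-CreERT2, a recombinase that works once Tamoxifen binds it and that is made only where the PSA promoter is active. Every culture grew in 10 nM R1881, a synthetic androgen, so this too is shared by all groups. In the chemical experiment 3 libraries of organoids given 1 µM DZNep, used as an EZH2 inhibitor, were set against 3 given the solvent DMSO. In the genetic experiment 2 libraries of organoids given 1 µM Tamoxifen were set against 2 given ethanol (EtOH). RNA was taken at 3 days, and the stated purpose was to compare organoids with and without inhibition of EZH2, the enzyme of Polycomb repressive complex 2 that methylates histone H3. Whether replicates came from separate cultures or from separate mice is not in the labels, and p-values here reflect the spread of these libraries alone, which may be technical.

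Proteins of this family share a small cysteine-rich domain whose disulphide bonds hold finger-like loops. Most sit on the outer cell surface on a glycosylphosphatidylinositol (GPI) anchor that the GPI transamidase complex attaches, while SLURP1 is secreted and acts on nicotinic acetylcholine receptors of keratinocytes. PLAUR is the urokinase receptor, which gathers urokinase at the cell surface, and LYPD3 is its relative in stratified squamous epithelium. PSCA, prostate stem cell antigen, is known from prostate and bladder epithelium, and LY6A (Sca-1) and LY6E are known as interferon-induced surface proteins.

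Promoter sequence from RefSeq, 250 bases before to 50 bases after the start of transcription, was found for 3 of the 9 members. Those of LY6G6C, whose changes differed most between the experiments, and of PLAUR, which moved against most other members, are shown on build GRCm38.p6, plus strand, 5′ to 3′. The LY6G6C window lies at chr17:35067075-35067374 and the PLAUR window at chr7:24462233-24462532, and capitals mark a match to an AP-1 motif.
LY6G6C: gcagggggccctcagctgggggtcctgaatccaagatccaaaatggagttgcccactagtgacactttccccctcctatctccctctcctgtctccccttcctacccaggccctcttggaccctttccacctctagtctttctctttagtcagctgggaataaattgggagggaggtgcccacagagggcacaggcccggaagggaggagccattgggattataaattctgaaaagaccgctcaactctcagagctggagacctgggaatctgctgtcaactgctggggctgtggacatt
PLAUR: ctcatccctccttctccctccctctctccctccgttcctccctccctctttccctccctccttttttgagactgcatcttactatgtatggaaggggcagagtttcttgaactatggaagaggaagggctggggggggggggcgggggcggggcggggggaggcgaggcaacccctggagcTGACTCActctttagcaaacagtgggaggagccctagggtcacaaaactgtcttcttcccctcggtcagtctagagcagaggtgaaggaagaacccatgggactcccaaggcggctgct

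Both strands were searched for the interferon-stimulated response element (GAAA, any 2 bases, GAAA), TTCNNNGAA (the STAT site) and TGANTCA (the AP-1 site). The PLAUR window held 1 AP-1 match, at bases 182 to 188, and no other match to these letters was found in the windows of LY6G6C, LYPD3 and PLAUR. Of 32851 RefSeq promoter windows of this length, 3.44% held the first motif, 8.30% the second and 7.81% the third. The motifs do not overlap in the PLAUR window, and a match is a description of the letters only.

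The deposited values are log2(RPKM + 1), with RPKM the reads of a gene scaled to its transcript length and to the reads of the library, and levels below are the RPKM recovered from them. Total RPKM per library ranged between 469455 and 512726, and 15021 to 15404 genes were listed above 0. Read counts, and so the counting error behind each value, are unknown. Within a group, libraries correlated across genes at r of 0.976 to 0.985. EZH2, the targeted gene, had 22.5, 24.2 and 24.7 RPKM with DZNep and 30.4, 29.8 and 27.1 RPKM with DMSO. Its log2 change with DZNep was −0.28 ± 0.0612 (SE, limma adjusted p = 0.0142), and without DMSO 2 it was −0.26 (limma adjusted p = 0.0652). With Tamoxifen EZH2 had 32.0 and 33.2 RPKM, against 27.9 and 33.96 RPKM with EtOH, a log2 change of 0.08 ± 0.0986 (limma adjusted p = 0.635). Because this value covers the whole gene, with exons that the loxP sites do not flank, it is no check of recombination. The epithelial markers KRT19 and KRT5 averaged 2742 and 2752 RPKM with DZNep, and the luminal marker HOXB13 averaged 34.8 RPKM there. PBSN, the classic secretory gene of mouse prostate, was listed at 0 in all 10 libraries. Defining markers of leukocytes (PTPRC, at most 0.00494 RPKM) and of endothelium (PECAM1, at most 0.445 RPKM) were near 0 in every library. Of the 7 fibroblast markers COL3A1 was listed at 0 in every group, and their summed level was 9.28 to 10.2 RPKM with DZNep, 4.32 to 5.77 RPKM with DMSO, 4.67 to 5.72 RPKM with Tamoxifen and 4.88 to 5.28 RPKM with EtOH. With DZNep 2 of the 3 fibroblast markers tested rose, DCN (6.11 RPKM, against 2.77 RPKM with DMSO) and ACTA2, and 1 fell, FBLN1, a call lost without DZNep 3, DMSO 1, DMSO 2 or DMSO 3. ACTA2 averaged 2.62 RPKM with DZNep and 0.692 RPKM with DMSO. It reached the mean of 1 RPKM needed for a test only through its DZNep libraries. Of 8 luminal markers tested, 3 rose and 1 fell with DZNep (2 rose and 0 fell without DZNep 2 or DMSO 2) and 1 fell with Tamoxifen, a call lost without Tamoxifen 1, Tamoxifen 2 or EtOH 1. The part of these markers in the results was not tested. Over all genes tested, 16.6% were called higher and 11.1% lower with DZNep, and 0.692% higher and 1.38% lower with Tamoxifen.

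The family made up 1.04% to 1.66% of all RPKM in a library through its 9 members. LY6D alone held 0.454% to 0.815% and ranked between the 4th and the 19th most abundant gene. In both vehicle groups the mean level per length fell in the order LY6D, LY6A, PSCA, LY6E, SLURP1, PLAUR, LYPD3, LY6G6C and LY6K. Neighbours in that order did not overlap between libraries, except LY6E and SLURP1 with EtOH. LY6E and SLURP1 averaged 550.3 and 543 RPKM there. The sum over the members was 7580 to 7997 RPKM with DZNep and 5730 to 5853 RPKM with DMSO. It was 5342 to 5578 RPKM with Tamoxifen and 5556 to 6252 RPKM with EtOH.

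**Figure D1:**
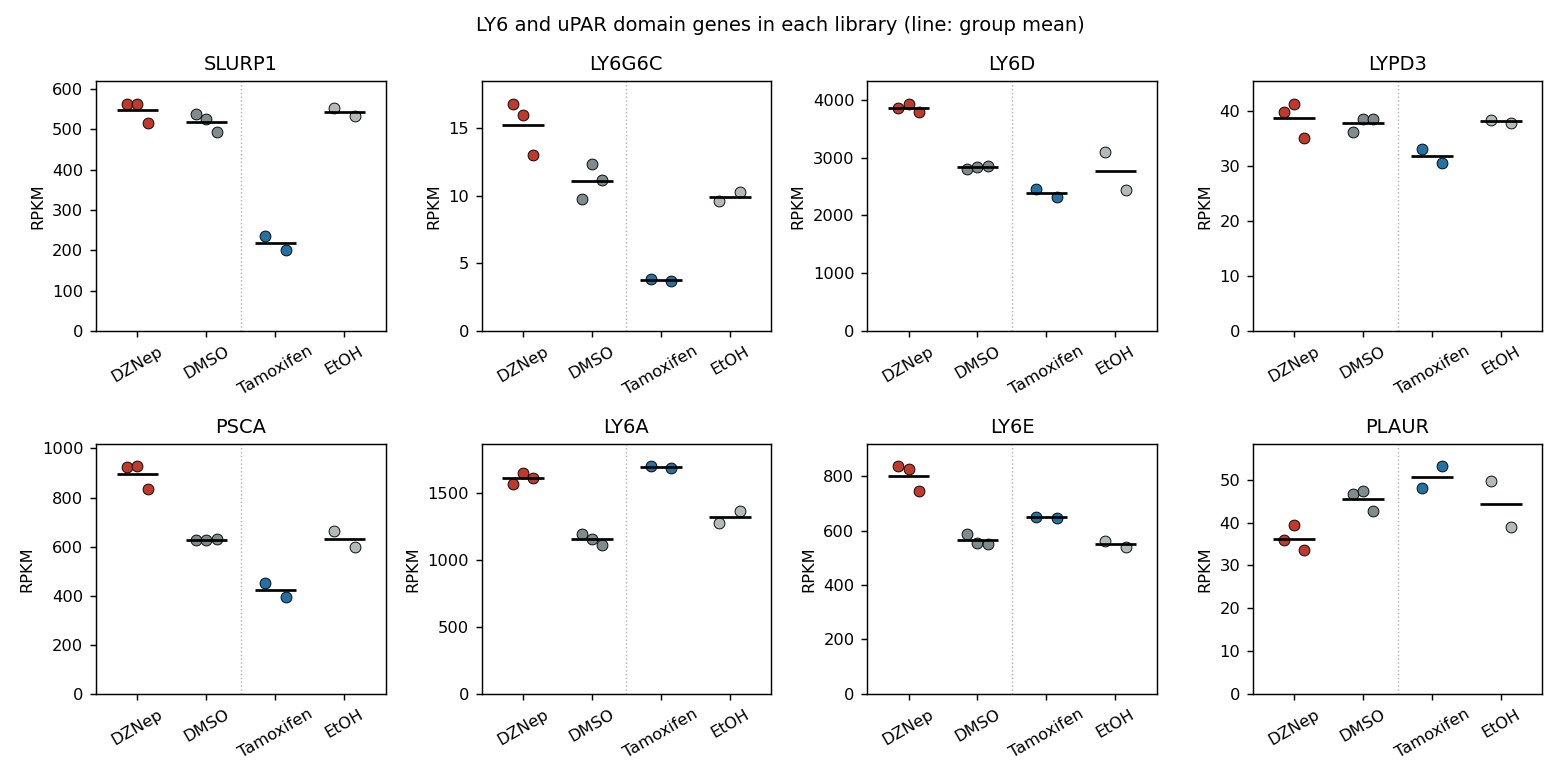
RPKM (vertical axis, linear, starting at 0) of 8 members in each of the 10 libraries, with treated groups left of their vehicles; points are libraries and horizontal lines are group means. LY6D, PSCA, LY6A, LY6E and LY6G6C lie above DMSO in all 3 DZNep libraries, while SLURP1 and LY6G6C lie far below EtOH in both Tamoxifen libraries.

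Among the squamous members, SLURP1 and LY6G6C stood lowest relative to EtOH with Tamoxifen, at ratios of means of 0.401 and 0.376. SLURP1 measured 563, 562 and 515 RPKM with DZNep, against 538, 525 and 494 RPKM with DMSO, and these groups overlapped. It measured 236 and 199.8 RPKM with Tamoxifen, against 553 and 534 RPKM with EtOH, so that both Tamoxifen libraries held less than either EtOH library. The Tamoxifen mean of SLURP1 was 218 ± 25.3 RPKM and the EtOH mean 543 ± 13.9 RPKM (SD, n = 2 each). On the log2(RPKM + 1) scale, which understates changes of low genes, the SLURP1 change was 0.08 ± 0.0608 with DZNep and −1.32 ± 0.0940 with Tamoxifen (SE).

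LY6G6C, a GPI-anchored family protein encoded in the major histocompatibility complex region, moved in opposite directions in the 2 experiments. Its levels were 16.8, 15.98 and 13.0 RPKM with DZNep and 9.74, 12.4 and 11.1 RPKM with DMSO, without overlap. With Tamoxifen its levels were 3.83 and 3.67 RPKM, and with EtOH they were 9.63 and 10.3 RPKM. LY6G6C was thus higher in every DZNep library than in any DMSO library, and lower in both Tamoxifen libraries than in either EtOH library. The changes were 0.43 ± 0.107 and −1.21 ± 0.0623 on the log2 scale (SE).

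LY6D, a surface antigen of keratinocytes and of luminal progenitor cells in mouse prostate, was the most abundant member in every library. It reached 3853, 3930 and 3785 RPKM with DZNep, against 2809, 2841 and 2845 RPKM with DMSO. The 3 DZNep libraries all stood above the DMSO libraries, whose own spread was small (SD 19.9 RPKM, n = 3). With Tamoxifen LY6D had 2453 and 2324 RPKM and with EtOH 3101 and 2432 RPKM, and these groups overlapped because EtOH 2 lay below Tamoxifen 1. Its log2 changes were 0.45 ± 0.0550 with DZNep and −0.20 ± 0.131 with Tamoxifen (SE).

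LYPD3 had the smallest log2 change of the tested members with DZNep. With DZNep it had 39.8, 41.3 and 35.0 RPKM, values on both sides of the 36.2, 38.6 and 38.6 RPKM with DMSO. With Tamoxifen it had 33.0 and 30.6 RPKM, below the 38.4 and 37.8 RPKM with EtOH. The log2 changes of LYPD3 were 0.03 ± 0.0676 and −0.25 ± 0.0601 (SE), and the first was −0.02 without DZNep 2 and positive under every other alternative run.

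PSCA, the urothelial and prostate member, was higher with DZNep and lower with Tamoxifen. It measured 924, 927 and 836 RPKM with DZNep, against 628, 625 and 630.4 RPKM with DMSO. It measured 451 and 394 RPKM with Tamoxifen, against 662 and 597 RPKM with EtOH. Neither pair of groups overlapped, and the ratios of means were 1.43 for DZNep over DMSO and 0.671 for Tamoxifen over EtOH. The log2 changes were 0.51 ± 0.0589 and −0.58 ± 0.0964 (SE).

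The interferon-induced members were higher in both treated groups. LY6A, the Sca-1 antigen of mouse progenitor cells, had 1568, 1655 and 1618 RPKM with DZNep and 1199, 1162 and 1115 RPKM with DMSO. It had 1702 and 1689 RPKM with Tamoxifen and 1275 and 1367 RPKM with EtOH. The ratios of means for LY6A were 1.39 with DZNep and 1.28 with Tamoxifen, with log2 changes of 0.48 ± 0.0565 and 0.36 ± 0.0735 (SE).

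LY6E, which is also known to restrict the entry of some viruses, showed the same order of groups. LY6E measured 837, 826 and 744 RPKM with DZNep, against 586, 555 and 553 RPKM with DMSO. It measured 650.4 and 648 RPKM with Tamoxifen, against 562 and 539 RPKM with EtOH, so that again no treated library fell within its vehicle group. Its log2 changes were 0.50 ± 0.0634 with DZNep and 0.24 ± 0.0632 with Tamoxifen (SE). The SLURP1 level was thus close to that of LY6E with EtOH and well under LY6E with Tamoxifen, where the means were 218 and 649 RPKM.

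PLAUR was the 1 tested member that was lower with DZNep. It had 35.9, 39.3 and 33.5 RPKM with DZNep, all below the 46.7, 47.4 and 42.7 RPKM with DMSO, a log2 change of −0.32 ± 0.0699 (SE). With Tamoxifen it had 48.2 and 53.1 RPKM and with EtOH 49.6 and 39.1 RPKM, which overlapped, at a log2 change of 0.20 ± 0.123 (SE). LY6K, known in human from testis and tumours, was listed at 0 in 9 libraries and at 0.0412 RPKM in DMSO 3, below the mean of 1 RPKM needed for a test.

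A gene was called when its limma p, adjusted by Benjamini and Hochberg over all genes tested, was under 0.05. In DZNep against DMSO, 8 of the 9 members were tested, and 5 were called higher (LY6A, LY6D, LY6E, LY6G6C and PSCA) and 1 lower (PLAUR), where 27.7% of 11143 genes were called, 16.6% higher and 11.1% lower. LY6G6C was not called without DZNep 1, DZNep 2, DMSO 1 or DMSO 3, and PLAUR was not called without DMSO 2. In Tamoxifen against EtOH, SLURP1 and LY6G6C were called lower and 0 members higher, where 2.07% of 11123 genes were called, 0.692% higher and 1.38% lower. SLURP1 was not called without Tamoxifen 2, and without EtOH 2 the called members were SLURP1, LY6G6C, PSCA and LY6A. The median change of the 8 members was 0.44 with DZNep, against 0.01 over all genes tested, and −0.23 with Tamoxifen, against 0.04 over all genes tested. Groups did not overlap for 6 of the 8 members with DZNep, 5 higher and 1 lower, where this held for 45.5% of genes, 26.1% higher and 19.4% lower. With Tamoxifen groups did not overlap for 6 of the 8, 2 higher and 4 lower, where this held for 59.9% of genes, 36.6% higher and 23.2% lower. Since the members were chosen with these contrasts known, nothing is read from these counts.

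**Figure D2:**
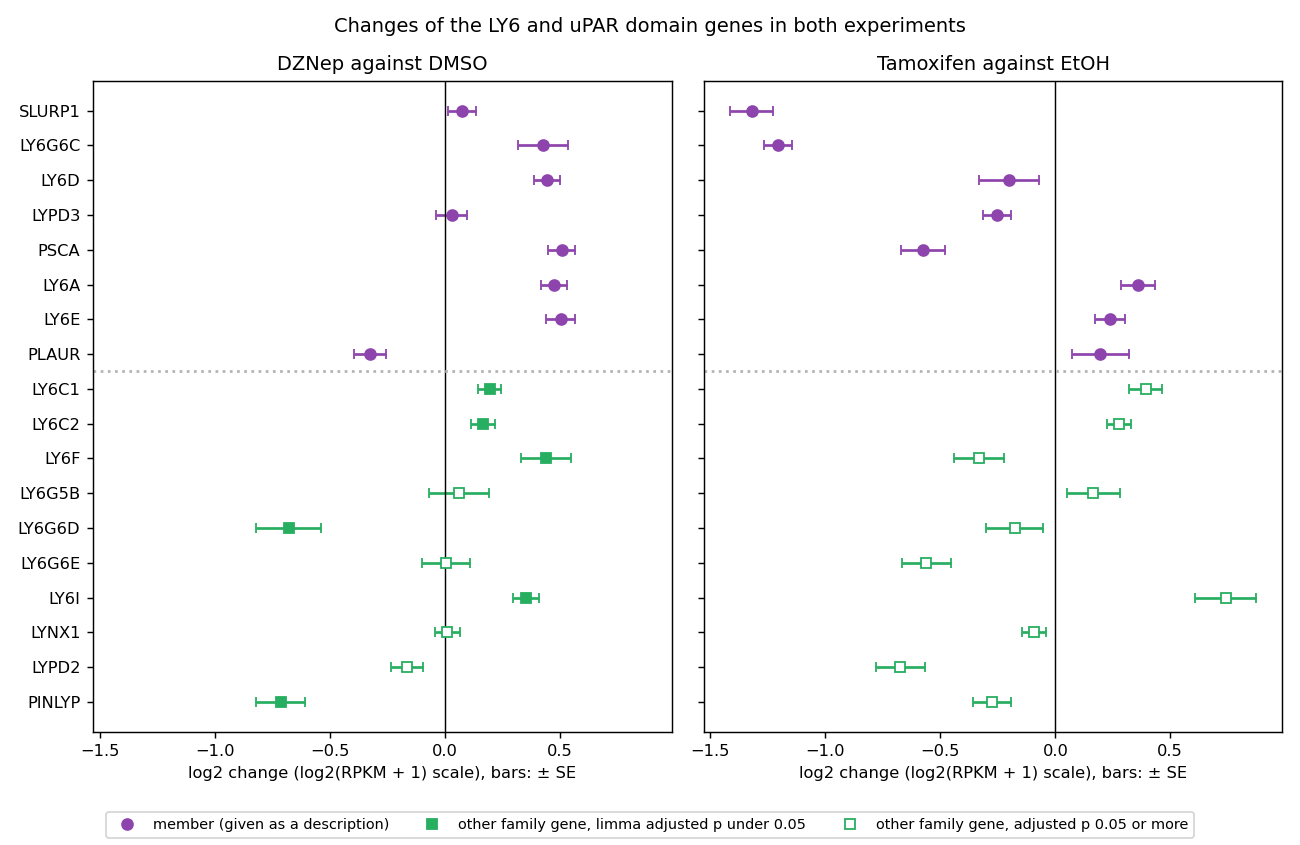
Change on the log2(RPKM + 1) scale (horizontal axis) with its standard error (bars) for the 8 members tested (circles) and 10 other genes of the family (squares), DZNep against DMSO on the left and Tamoxifen against EtOH on the right. SLURP1 and LY6G6C have the lowest values with Tamoxifen (−1.32 and −1.21), while LY6A, LY6E, LY6C1, LY6C2 and LY6I lie right of 0 in both panels.

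Set side by side, the changes of LY6G6C, SLURP1, PSCA and LY6D lay farther apart between the experiments than those of the interferon-induced members. The DZNep change minus the Tamoxifen change was 1.63 ± 0.153 for LY6G6C, 1.40 ± 0.111 for SLURP1, 1.09 ± 0.110 for PSCA and 0.65 ± 0.133 for LY6D on the log2 scale (SE). It was 0.28 ± 0.0995 for LYPD3, 0.27 ± 0.0925 for LY6E and 0.12 ± 0.0892 for LY6A, and −0.52 ± 0.143 for PLAUR. The members were chosen with measured values of these samples in view, so nothing is read from the calls that follow. LY6G6C, SLURP1, PSCA, LY6D and PLAUR were called in a joint limma fit of all 10 libraries. Of 10994 genes 19.9% were called in that fit, 10.7% with a positive and 9.2% with a negative difference. PLAUR was not called there without DZNep 3, DMSO 2, Tamoxifen 2 or EtOH 2.

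The other genes were taken by family membership, and their tests are given. Of 33 other family genes, 31 had a row and 10 reached a mean of 1 RPKM in each experiment, while 11 or 12 were listed at 0 throughout a group. CD59A, which encodes a complement inhibitor that many cells carry, was among those listed at 0 in every group. With DZNep 4 genes rose and 2 fell, where 16.6% of all genes tested were called higher and 11.1% lower. PINLYP, which encodes a phospholipase A2 inhibitor-like protein, averaged 4.21 RPKM with DZNep and 7.52 RPKM with DMSO (log2 change −0.71 ± 0.107, limma adjusted p = 0.00313). LY6G6D, a neighbour of LY6G6C, averaged 2.47 RPKM with DZNep and 4.49 RPKM with DMSO (log2 change −0.68 ± 0.142, limma adjusted p = 0.0117). LY6I rose to 4.05 RPKM, against 2.95 RPKM with DMSO (limma adjusted p = 0.00426), and LY6F rose to 2.29 RPKM, against 1.43 RPKM (limma adjusted p = 0.0205). LY6C1 and LY6C2, surface antigens best known from monocytes, rose by 0.20 ± 0.0517 and 0.17 ± 0.0515 on the log2 scale (limma adjusted p = 0.0265 and 0.0455). The LY6C1 call was lost without DZNep 2, DZNep 3 or DMSO 2, under quantile normalization and with a replicate block. The LY6C2 call was lost when any library but DZNep 1 was left out. It was also lost under quantile normalization, trimmed mean scaling, no trend and a replicate block. The LY6F call was lost without DZNep 1 or DMSO 2. Without DMSO 2 the calls were LY6I, LY6G6D and PINLYP. LYPD2 (−0.16), LY6G5B (0.06), LYNX1 (0.01) and LY6G6E (0.00) did not pass the test, and the sign of the last 3 depended on the setting.

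With Tamoxifen 0 of these 10 genes passed the limma test after adjustment, 7 had an unadjusted p under 0.05, and 1 was called without EtOH 2, LY6I. The share of all genes with an unadjusted p under 0.05 is not given here. Nothing is therefore read from that count, or from the same counts for the lists below. LYPD2 averaged 3.79 RPKM with Tamoxifen and 6.62 RPKM with EtOH (log2 change −0.67 ± 0.108, limma adjusted p = 0.0524). LY6I averaged 7.70 RPKM with Tamoxifen and 4.24 RPKM with EtOH (log2 change 0.74 ± 0.132, limma adjusted p = 0.0614). LY6C1 averaged 364 ± 5.54 RPKM with Tamoxifen and 277 ± 19.1 RPKM with EtOH (SD, n = 2 each; limma adjusted p = 0.0635). The difference between experiments was called for LY6F (0.77 ± 0.163, limma adjusted p = 0.0104), LYPD2 (0.51 ± 0.130, limma adjusted p = 0.0224) and LY6G6E (0.57 ± 0.169, limma adjusted p = 0.0402). Without DMSO 2 or Tamoxifen 2 it was called for LY6F alone, and without EtOH 2 for 2 genes in opposite directions. LY6A, LY6C1, LY6C2, LY6I and LY6F are similar in sequence, so reads may have been split among them and their single values are uncertain. SLURP2 and LYNX1 share an alias in RefSeq, so LYNX1 is uncertain too.

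Most members lie in a single cluster. In RefSeq gene order, chromosome 15 carries 19 family genes, 6 of them members, starting with PSCA, SLURP1, LYPD2, SLURP2, LYNX1 and LY6D and going on over LY6K and LY6E to LY6I, LY6A, LY6C1, LY6C2 and LY6F. Of the 11 tested there, 10 had a positive log2 change with DZNep and 1, LYPD2, a negative one, though LYNX1 at 0.01 turned negative under quantile and trimmed mean scaling. With Tamoxifen the signs followed the order of the genes, except for LY6F. PSCA, SLURP1, LYPD2, LYNX1 and LY6D had negative changes, LY6E, LY6I, LY6A, LY6C1 and LY6C2 positive ones, and LY6F again a negative one. The order of signs was seen in these values and was not tested. Of these genes only SLURP1 was called with Tamoxifen, and LY6D, at −0.20, had overlapping groups. LY6I, LY6A, LY6C1 and LY6C2 may share reads, so their signs may not be independent. On chromosome 17, LY6G6C stands beside LY6G6D and LY6G6E, and 3 of the 4 genes tested there had a negative change with Tamoxifen, LY6G5B being the exception. On chromosome 7, PLAUR, PINLYP and LYPD3 follow each other among the family genes, and PLAUR and PINLYP had the negative changes with DZNep. Genes outside the family were left out of this order, so it does not show which genes are immediate neighbours.

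**Figure D3:**
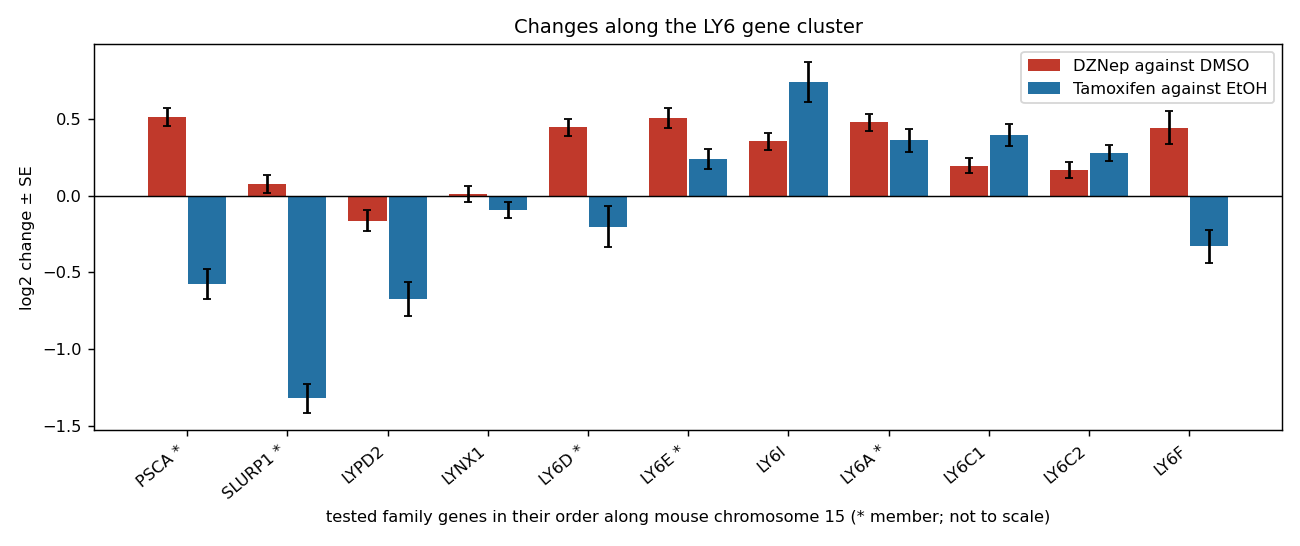
Change on the log2(RPKM + 1) scale (vertical axis, bars with their standard errors) of the tested family genes of chromosome 15, placed from left to right in their RefSeq order and not to distance. With Tamoxifen the 5 genes from PSCA to LY6D lie below 0 and the 5 genes from LY6E to LY6C2 above it, while with DZNep all but LYPD2 are at or above 0, LYNX1 at 0.01 with a sign that turned under other scalings.

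The partners of these proteins gave the following counts. For these and the lists below, the shares over all genes tested were 16.6% called higher and 11.1% lower with DZNep. With Tamoxifen they were 0.692% higher and 1.38% lower. Of 5 subunits of the GPI transamidase, PIGU (0.19 ± 0.0478) and PIGS (0.25 ± 0.0648) rose and GPAA1 (−0.22 ± 0.0627) fell with DZNep, with limma adjusted p-values of 0.0246, 0.0256 and 0.0365. None of the 3 was called without DZNep 2 or without DMSO 2. With Tamoxifen 0 of 5 were called by limma, and 0 had an unadjusted p under 0.05. Of 13 nicotinic receptor subunits, the kind of receptor SLURP1 acts on, only CHRNB1 reached a mean of 1 RPKM. CHRNB1 averaged 5.49 ± 0.316 RPKM with DZNep and 6.57 ± 0.418 RPKM with DMSO (SD, n = 3 each; limma adjusted p = 0.0332), a call lost when any library but DZNep 1 was left out. CHRNA7, the subunit most often named as the SLURP1 target, was listed at 0 in every library.

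For the urokinase system around PLAUR, 2 of 11 tested genes rose and 1 fell with DZNep. Over all genes tested, 16.6% were called higher and 11.1% lower, so these counts lie near the share of all genes. SERPINE2 and SERPINB2, which inhibit plasminogen activators, rose by 0.67 ± 0.0661 and 0.82 ± 0.0836 on the log2 scale (limma adjusted p = 5.20e-04 and 5.98e-04). SERPINB2 averaged 1.75 RPKM with DZNep and 0.557 RPKM with DMSO. It reached the mean of 1 RPKM needed for a test only through its DZNep libraries, and it was not tested with Tamoxifen. ITGA3, an integrin subunit, fell by 0.59 on the log2 scale, to 79.5 ± 3.37 RPKM, against 120.2 ± 7.77 RPKM with DMSO (SD, n = 3 each; limma adjusted p = 6.82e-04). With Tamoxifen 0 of 10 were called by limma, 3 had an unadjusted p under 0.05, and PLAT, tissue plasminogen activator, had a log2 change of 0.39 (limma adjusted p = 0.0537). The median change of the list was 0.02 with DZNep and 0.06 with Tamoxifen, near that of all genes.

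The squamous list holds keratins, envelope proteins and desmosomal genes outside the family. Of 17 tested with DZNep, 10 rose and 1 fell, with a median of 0.29. Called or not, 13 had a positive and 4 a negative log2 change. The negative ones were LOR (−0.33), SPRR1A (−0.15), DSC2 (−0.13) and IVL (−0.01). The 10 that rose became 8 when any 1 library was left out. The mean of 1 RPKM needed for a test counted the DZNep libraries, so a gene low with DMSO could pass through them. With no filter, 8 of 19 rose and 1 fell. Over all genes tested, 16.6% were called higher and 11.1% lower with DZNep. Of 15 tested with Tamoxifen, 0 rose and 8 fell, with a median of −0.53. Those 8 became 1 without Tamoxifen 2, 3 without Tamoxifen 1 and 4 without EtOH 1. KRT13, a keratin of mucosal squamous cells, averaged 175 ± 9.92 RPKM with DZNep and 60.9 ± 3.17 RPKM with DMSO (SD, n = 3 each; log2 change 1.51, limma adjusted p = 5.45e-06). It averaged 20.2 ± 2.47 RPKM with Tamoxifen and 60.4 ± 1.33 RPKM with EtOH (SD, n = 2 each; log2 change −1.54, limma adjusted p = 0.0128). KRT16 rose by 0.88 with DZNep and fell by 0.98 with Tamoxifen on the log2 scale (limma adjusted p = 8.12e-05 and 0.0249). DSG3, a desmosomal cadherin, rose by 0.29 with DZNep (limma adjusted p = 0.0336), a call lost in 5 of the 6 fits that leave out a library. It fell by 1.08 with Tamoxifen (limma adjusted p = 0.0128), and DSG3 and KRT16 lost the Tamoxifen call without Tamoxifen 2. In bulk RNA, fewer cells of a type and less RNA per cell cannot be told apart. Some basal markers moved beside these genes, with KRT5 at 2752 RPKM with DZNep and 2061 RPKM with DMSO. KRT5 averaged 1714 RPKM with Tamoxifen and 2119 RPKM with EtOH, and this was not called (limma adjusted p = 0.104). The part of basal markers in the result was not tested. Of the 8 basal markers 4 rose and 2 fell with DZNep, the 2 being ITGA6 (log2 change −0.29) and ITGB4 (−0.36). With Tamoxifen 1 fell, KRT14, a call lost without Tamoxifen 1, Tamoxifen 2 or EtOH 1. The summed level of the 8 was 6998 to 7238 RPKM with DZNep and 5246 to 5498 RPKM with DMSO. It was 4349 to 4457 RPKM with Tamoxifen and 5419 to 5807 RPKM with EtOH.

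Beside PSCA, 4 of 7 tested urothelial genes rose with DZNep, and 1 was called without DZNep 1, DZNep 2, DMSO 2 or DMSO 3. UPK3A, a uroplakin of the bladder surface, averaged 25.7 ± 1.66 RPKM with DZNep and 9.32 ± 0.433 RPKM with DMSO (SD, n = 3 each; log2 change 1.37, limma adjusted p = 7.53e-06). It averaged 5.64 RPKM with Tamoxifen and 9.75 RPKM with EtOH (log2 change −0.69, limma adjusted p = 0.0939). With Tamoxifen 0 of the 7 were called by limma, 4 had an unadjusted p under 0.05, and 1 was called without EtOH 2.

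Beside LY6A and LY6E, all 18 interferon-induced genes of the list were tested and rose with DZNep, with a median of 1.42. This is a larger change than the 0.48 of LY6A and 0.50 of LY6E on the same log2 scale. The mean of 1 RPKM needed for a test counted the DZNep libraries, so a gene low with DMSO could pass through them. In the genetic experiment 13 of the 18 reached that mean, so the median with Tamoxifen is over fewer genes. With no filter all 18 were again called higher with DZNep. ISG15, a ubiquitin-like modifier, averaged 21.9 ± 0.909 RPKM with DZNep and 2.16 ± 0.0916 RPKM with DMSO (SD, n = 3 each; log2 change 2.86, limma adjusted p = 1.87e-07). With Tamoxifen 6 of 13 rose, with a median of 0.52, and 0 were called without Tamoxifen 1 or without Tamoxifen 2 and 2 without EtOH 1. The DZNep change minus the Tamoxifen change was called positive for all 13, with a median of 0.97, where 10.7% of all genes were. For LY6A (0.12) and LY6E (0.27) it was not called. BST2, an antiviral surface protein that is also GPI-anchored, averaged 22.0 ± 3.30 RPKM with Tamoxifen and 10.3 ± 0.745 RPKM with EtOH (SD, n = 2 each; log2 change 1.02, limma adjusted p = 0.0305). CD14, the 1 leukocyte-list gene above 10 RPKM, averaged 43.0 RPKM with DZNep, 31.6 RPKM with DMSO, 52.0 RPKM with Tamoxifen and 36.3 RPKM with EtOH, while PTPRC and CD3E stayed at or below 0.0400 RPKM. S100A8, the other leukocyte-list gene tested, averaged 6.05 RPKM with DZNep and 2.63 RPKM with DMSO (log2 change 1.07, limma adjusted p = 0.0299). Its DMSO libraries had 4.80, 1.70 and 1.39 RPKM. With Tamoxifen S100A8 averaged 1.28 RPKM, against 2.17 RPKM with EtOH (log2 change −0.42, limma adjusted p = 0.355). The 1.30 and 1.26 RPKM with Tamoxifen overlapped the 3.04 and 1.29 RPKM with EtOH. Without DZNep 1, DZNep 2, DZNep 3, DMSO 2 or DMSO 3, only 1 of these 2 genes was called with DZNep.

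**Figure D4:**
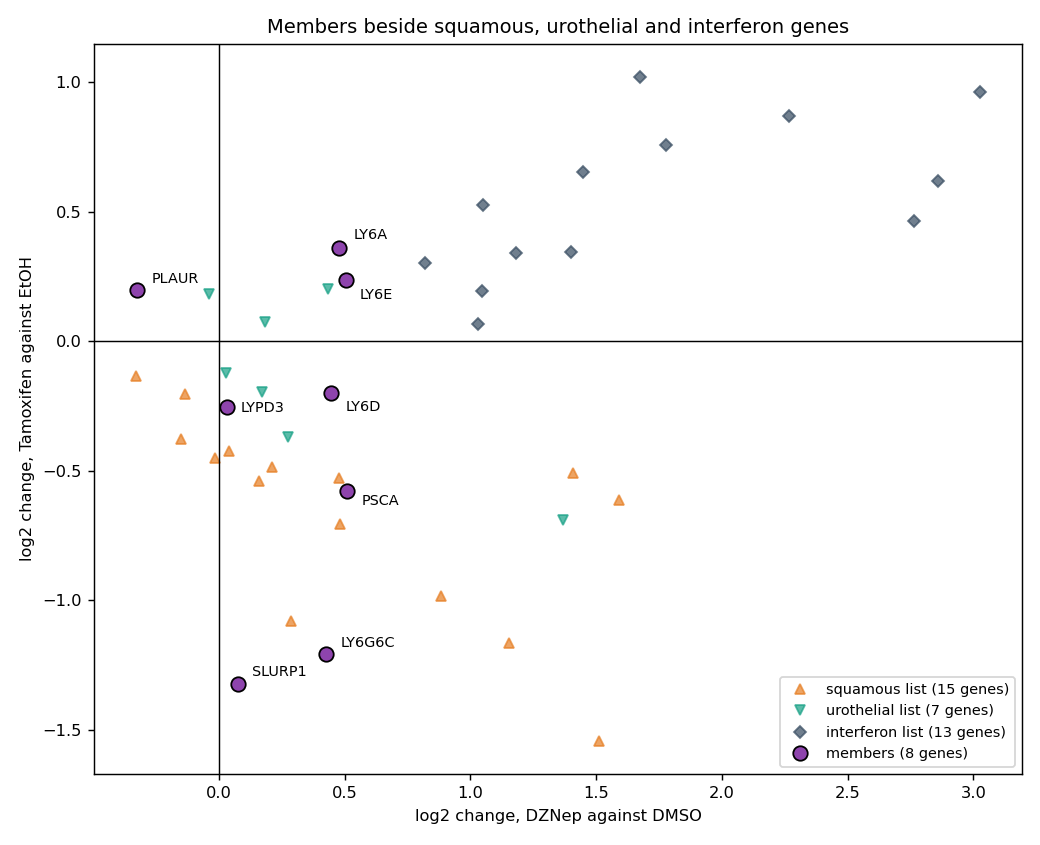
Change with DZNep (horizontal axis) against change with Tamoxifen (vertical axis), both on the log2(RPKM + 1) scale, for the 8 members (labelled) and the tested genes of the squamous, urothelial and interferon lists. SLURP1 (0.08, −1.32), LY6G6C (0.43, −1.21) and PSCA (0.51, −0.58) lie in the lower right with KRT13 (1.51, −1.54). LY6A (0.48, 0.36) and LY6E (0.50, 0.24) lie in the upper right, as do the interferon-induced genes, whose changes with DZNep were all larger (0.82 or more).

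Across the 10 libraries, after the mean of each table was subtracted, LY6A and LY6E were the most alike pair of members (Pearson r = 0.944), followed by SLURP1 and LY6G6C (r = 0.911) and by LY6D and PSCA (r = 0.888). PSCA and PLAUR ran against each other (r = −0.696), and SLURP1 and LY6A did so less closely (r = −0.446). These libraries share their treatments, so the values describe the pattern of 4 groups and carry no test. Of 10986 genes outside the family members, FAM3B (r = 0.978), ARPC5 (r = 0.975) and SERPINB5 (r = 0.971) were most like SLURP1. PXMP4 (r = 0.986), NEDD9 (r = 0.982) and KRT13 (r = 0.982) were most like PSCA, and UAP1L1 (r = 0.993), SLCO3A1 (r = 0.986) and PSME2 (r = 0.985) most like LY6A. FAM3B averaged 26.4 RPKM with DZNep, 27.7 RPKM with DMSO, 13.2 RPKM with Tamoxifen and 26.6 RPKM with EtOH, which is the order of SLURP1 with Tamoxifen and EtOH. UAP1L1 averaged 30.7 RPKM with DZNep, 22.0 RPKM with DMSO, 33.0 RPKM with Tamoxifen and 24.1 RPKM with EtOH, higher in both treated groups as LY6A was.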

How the data were processed

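RNA-seq of 10 libraries was analysed from 2 tables, 1 per experiment, in which the authors deposited log2 values per gene; their floor of 0 fits log2(RPKM + 1). Per the labels' protocols, libraries were made with the Illumina TruSeq Stranded mRNA kit. Per the submitters' processing notes, the tools were bcl2fastq 2.18, STAR and Cufflinks, on build mm9. Not given in the sources used here are versions of the last 2, the use of strand, the treatment of multiply aligned reads and any normalization across tables. Levels are 2 raised to the deposited value, minus 1. Date-like symbols (27 rows of the genetic table) were left out.

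Tests used limma 3.58.1 (R 4.3.3; two-sided, with a mean trend) on the deposited scale, separately in each experiment, for genes that averaged 1 RPKM or more in that table, with Benjamini-Hochberg adjustment over all genes tested and a threshold of 0.05. The mean for this filter covered treated and vehicle libraries, so a gene could pass through its treated group alone. The difference between experiments came from 1 limma fit of 4 group means, so no level was tested across tables. The procedure was tested on simulated data. RefSeq (GRCm38.p6, another build than mm9) served for names, gene order and promoters only. Plots were made in Python 3.11.15 (matplotlib 3.10.9).

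The members, lists and naming rule were chosen with earlier results of these data known. Named were the members, every other family gene tested, EZH2, up to 3 genes of smallest p in each list and experiment (a part of these is given in full), and the 3 genes most like SLURP1, PSCA and LY6A. PECAM1, PTPRC, CD3E, CD14, S100A8, COL3A1, DCN, ACTA2, FBLN1, KRT5, KRT14, ITGA6, ITGB4, KRT19, HOXB13, PBSN, CD59A and CHRNA7 were named after their values were seen. So were LOR, SPRR1A, DSC2 and IVL. Alternatives changed the pseudocount (0.1), the filter (none, or 5 RPKM), the scaling (quantile, or trimmed mean), the variance prior (no trend, or robust) and the fit (a replicate block, all libraries jointly, or without each library in turn). A comparison of the proteins was not made.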

Additional observations from a re-analysis of the deposited data

Results flagged for a closer look

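The following changes differed between the experiments, in the joint limma fit of all 10 libraries, beyond the threshold of 0.05 after Benjamini-Hochberg adjustment. Each value is the log2 change with DZNep minus the log2 change with Tamoxifen. Among the members, whose choice used these samples, it was 1.40 for SLURP1, 1.63 for LY6G6C, 0.65 for LY6D, 1.09 for PSCA and −0.52 for PLAUR. Among the other family genes it was 0.77 for LY6F, 0.57 for LY6G6E and 0.51 for LYPD2. Among squamous genes it was 3.05 for KRT13, 2.20 for KRT10, 1.92 for KRT1, 1.87 for KRT16 and 1.37 for DSG3. The urothelial genes UPK3A, KRT20 and UPK1B had differences of 2.06, 0.64 and 0.37. For interferon-induced genes the differences were 2.30 for IFIT1, 2.24 for ISG15, 1.40 for OASL2, 1.02 for IRF7, 0.66 for BST2 and 0.53 for USP18. In the urokinase system SERPINE2 had 0.51, PLAT −0.35 and ITGA3 −0.84. PIGU and GPAA1 of the GPI transamidase had 0.28 and −0.39, and CHRNB1 had −0.49.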

How the results depend on the processing

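The 368 values of the 24 member changes under the alternatives were set against the spread of replicates. For the difference between experiments its standard error served instead. Of the 368, 354 moved by less, 14 moved by more, and 0 called changes turned round. Of 1598 values of other named genes, 1400 kept their direction and call, 131 lost a call, 51 gained one and 16 turned round. Read depth is unknown, and 2 or 3 libraries a group limit the precision. The causes below were not tested. The pairing check gave correlations of same-numbered deviations of 0.0591, 0.0590, −0.0675 and 0.0400. Differently numbered DZNep and DMSO libraries gave −0.146 to 0.0945. With 2 libraries a group the deviations mirror each other, so the genetic experiment gives 1 number with either sign. Whether the labels' numbers pair the samples cannot be settled by this check. The replicate block gave 1610 genes called with DZNep (3088 without it), 878 with Tamoxifen (230), 1226 for the difference (2190) and 5 other family genes with Tamoxifen (0). Leaving out 1 library gave 1482 (without DMSO 2) to 3308 genes with DZNep, 31 to 701 with Tamoxifen and 907 to 2338 for the difference. It gave 5 to 6 members with DZNep, 1 to 4 with Tamoxifen and 4 to 6 for the difference, and 3 to 5, 0 to 1 and 1 to 4 other family genes. With Tamoxifen the genes called were 1 with no filter, 388 with trimmed mean scaling, 646 with robust variances and 1053 in the joint fit. The 2 members called became 0 with no filter, 4 with robust variances and 4 in the joint fit. The 0 other family genes became 1 with the pseudocount of 0.1, 2 with quantile normalization, 1 with trimmed mean scaling, 5 with robust variances and 5 in the joint fit. With the filter of 5 RPKM, 5 other family genes were tested, and 3 were called with DZNep (6 otherwise) and 1 for the difference (3 otherwise). Directions turned for changes near 0. With DZNep, LY6G6E was −0.031 with quantile normalization and −0.015 with trimmed mean scaling, and LYNX1 was −0.013 and −0.0078 there. Leaving out 1 library gave, with DZNep, −0.087 to 0.12 for LY6G6E, −0.022 to 0.040 for LYNX1, −0.054 to 0.19 for LY6G5B and −0.080 to 0.0058 for GRHL3. With Tamoxifen it gave −0.058 to 0.21 for EZH2 and −0.016 to 0.42 for UPK1A, and for the difference −0.22 to 0.023 for LY6G5B.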
